A study of Mus musculus with 12 samples.

Results

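The genes described here encode the proteasome and the proteins that assemble, cap or regulate it. They were chosen by symbol alone, as the protein-coding genes of the count table named Psma to Psmg followed by a digit, with no use of measured values. The rule took 50 of the 53801 genes of the table. Of these 50, 5 are set beside the rest: the catalytic subunits Psmb8, Psmb9 and Psmb10 and the activator subunits Psme1 and Psme2, together called the immunoproteasome genes below. By role, the other 45 comprise 8 subunits of the alpha ring, 4 structural, 3 constitutive catalytic and 1 thymic subunit of the beta ring, 6 ATPases and 11 other subunits of the regulatory cap, 3 assembly chaperones of the cap and 4 of the core, 4 other activators and regulators, and Psmc3ip, a meiotic recombination factor that matched by name and is no proteasome subunit.

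The proteasome is the barrel-shaped protease that degrades proteins tagged with ubiquitin. Its core stacks rings of alpha subunits, which gate the entrance, and of beta subunits, some of which cut peptide bonds, and a regulatory cap binds ubiquitin chains, unfolds the substrate and feeds it in. Interferon is known to induce another set of catalytic subunits that replace the constitutive ones in newly made cores, giving the immunoproteasome, whose peptides are well suited to MHC class I molecules. Microglia are the resident macrophages of the brain and are known to express this inducible set when activated.

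The question of the design is how a stroke and a conditional knockout of Nhe1 change the RNA of microglia. All mice were 2 to 3 months old, carried 1 copy of Cx3cr1-CreER, received tamoxifen at 75 mg/kg for 5 days, at least 30 days ahead of surgery, and underwent 60 min of middle cerebral artery occlusion (MCAO). WT mice were Cx3cr1-CreER+/-; Nhe1+/+, and Nhe1 cKO mice were Cx3cr1-CreER+/-; Nhe1f/f, so Cre and tamoxifen are common to both genotypes. Cells were taken 72 h after MCAO by magnetic sorting with a P2RY12 antibody, separately from the contralateral (CL) hemisphere and the ischemic, ipsilateral (IL) one, which gives 4 groups (WT CL and IL, cKO CL and IL) of 3 libraries each. No group is free of stroke, Cx3cr1 also drives Cre in other myeloid cells, and libraries are named by their total counts, since no label ties a library of the count table to an animal. The headers of the table carry a number that stands on 1 CL and 1 IL column of the same genotype, and the study took both hemispheres of its mice, so CL and IL libraries may come from the same animals. The fit treats them as separate, and p-values measure the spread between libraries.

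The libraries held 2091512 to 47256174 counts, and depth differed between the groups: 2091512 to 12647526 in WT CL, 18425180 to 25166928 in WT IL, 9743603 to 20349883 in cKO CL and 43961276 to 47256174 in cKO IL. The microglial marker P2ry12, used for the sort, was detected in every library, at 84.9 to 365 CPM (counts scaled to library size with TMM factors) in WT mice and 129 to 541 CPM in cKO mice.

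Proteasome transcripts made up a small and rather even part of each CL library and a larger part of most IL libraries. The 50 genes took 0.173%, 0.128% and 0.183% of the counts in the WT CL libraries of 12647526, 5155202 and 2091512 counts. On the ischemic side of WT mice they took 0.147%, 0.194% and 0.356%, in libraries of 18425180, 25166928 and 23087202 counts. The first of these WT IL libraries lay at the level of the CL libraries, the last stood far above them, and the WT groups overlapped. In cKO, the share was 0.127%, 0.141% and 0.158% in the CL libraries of 9743603, 16937855 and 20349883 counts, and 0.315%, 0.286% and 0.311% in the IL libraries of 44907863, 47256174 and 43961276 counts. All 3 cKO IL libraries thus lay above all 3 cKO CL libraries, with mean shares of 0.304% ± 0.0157 and 0.142% ± 0.0155 (SD, n = 3), whereas an exact two-sided permutation test of 3 libraries against 3 cannot go below p = 0.1. Counting error was small beside these gaps, since the 95% Wilson intervals reached at most 0.0058 percentage points to either side and cover counting error only.

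**Figure D1:**
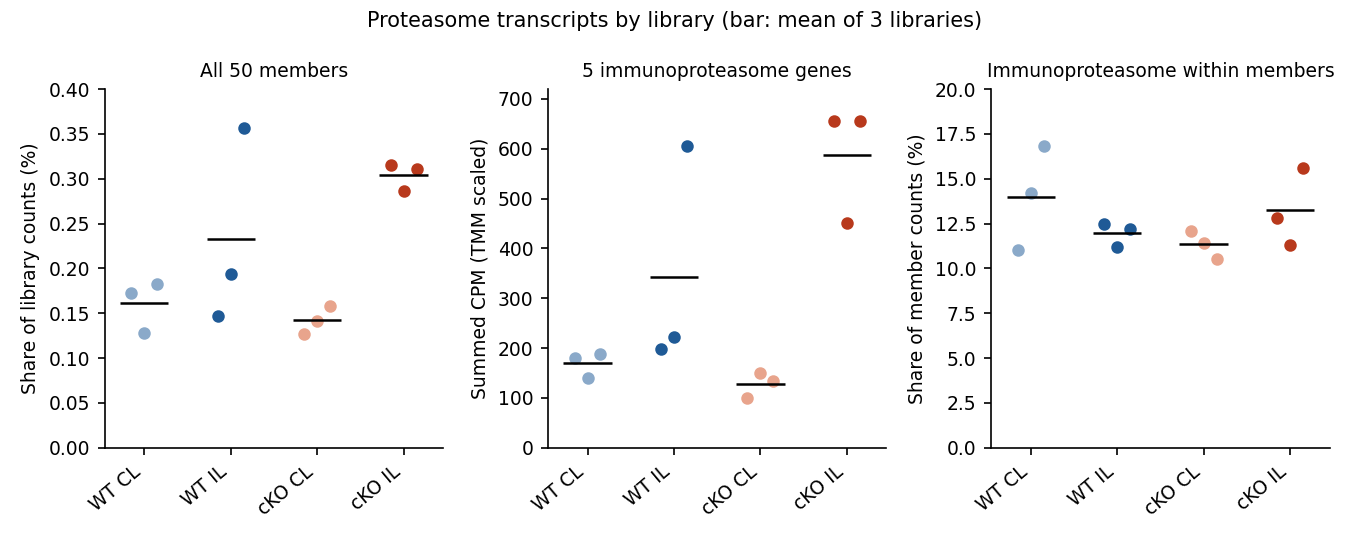
Proteasome transcripts in each of the 12 libraries, with the 4 groups on the x axis, points for libraries and bars for the mean of 3. The left panel gives the share of library counts in the 50 genes (%), the middle panel the summed CPM of the 5 immunoproteasome genes and the right panel their share of all proteasome counts (%). The cKO IL libraries sit at 0.286% to 0.315% in the left panel, above the cKO CL libraries at 0.127% to 0.158%.

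Other features of the libraries also differed between the groups, and their part in this share was not tested. In the same 3 ischemic WT libraries, in the order just given, the summed level of 8 monocyte markers was 149, 489.7 and 1259 CPM, the same order as their proteasome share. In the cKO IL libraries of 44907863, 47256174 and 43961276 counts it was 2779, 1509 and 898 CPM. Their proteasome shares were 0.315%, 0.286% and 0.311%, a different order. The summed monocyte level was 109 to 160 CPM in WT CL and 138 to 162 CPM in cKO CL. Of the 8 markers, 4 were called higher in cKO IL than in cKO CL, beside 2.94% of all genes tested. None of the 8 was at 0 in the IL or cKO CL libraries, up to 2 were at 0 in a WT CL library, and the defining marker Ccr2 stood at 136 to 726 CPM in cKO IL and 8.23 to 31.2 CPM in cKO CL. The summed level of 8 microglial markers ranged over 4303 to 9383 CPM in WT IL, 3784 to 7305 CPM in cKO IL, 6393 to 10199 CPM in WT CL and 4815 to 9036 CPM in cKO CL. Of these 8, 1 was called higher in cKO IL than in cKO CL and 0 lower, with 3 estimates above 0. Between cKO CL and cKO IL the summed markers of neurons (57.6 to 94.1 and 12.2 to 20.8 CPM), T and NK cells (19.4 to 28.01 and 3.49 to 8.37 CPM), B cells (7.46 to 29.3 and 2.82 to 7.4 CPM) and astrocytes (99.2 to 121 and 51.3 to 97.3 CPM) did not overlap and were lower in IL, with none of these 4 lists holding a gene called by edgeR. Of all genes tested, 35.9% were lower in cKO IL without overlap. The summed markers of neutrophils (280 to 553 and 418 to 817 CPM), oligodendrocytes (102 to 158 and 112 to 172 CPM) and endothelium (100 to 282 and 113 to 384 CPM) overlapped. Of 6 border macrophage markers 1, Pf4, was called higher, and their summed level was 140 to 213 CPM in cKO CL and 172 to 351 CPM in cKO IL. In bulk samples, fewer cells of a type and less RNA per cell cannot be told apart. Within the members, 15 of the 50 were at 0 counts in the WT CL library of 2091512 counts, 2 and 1 in the other WT CL libraries, 1 in a cKO IL library and none in the rest.

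Comparing IL with CL in cKO mice, 14 of the 50 genes were called higher and 0 lower at an adjusted p under 0.05, beside 2.94% of the 35674 genes tested that were called higher and 0.513% lower. Among the 9912 protein-coding genes at 10 CPM or more, 10.3% were called higher. The 14 genes come from the alpha ring, the beta ring, the cap and the immunoproteasome set, and include none of the chaperones or other regulators. Upward, 36 of the 50 passed an unadjusted p under 0.05, beside 10.5% of all genes tested. The fitted change was above 0 for 49 of the 50, beside 31.6% of all genes tested and 72.3% of the abundant protein-coding genes. The median log2 fold change was 2.001, where that over all genes tested was -1.33 and that over the abundant protein-coding genes 0.74. For 46 of the 50 every cKO IL library lay above every cKO CL library, beside 18.5% of all genes tested and 52.9% of the abundant protein-coding genes. With the header number as a replicate block, 10 of the 14 were called, and Psmb10, Psmc3, Psmd1 and Psmd4 missed the threshold (adjusted p = 0.0753, 0.0523, 0.0662 and 0.079 in edgeR with the block). The call count depended on single libraries: it was 0 without any 1 of the cKO CL libraries of 9743603, 16937855 or 20349883 counts, 2, 6 and 3 without the cKO IL libraries of 44907863, 47256174 and 43961276 counts, and 34 and 40 without the WT CL libraries of 12647526 and 2091512 counts. Calls over all genes moved as well. From 1050 genes called higher they went to 0, 38 and 33 without those cKO CL libraries, in that order, to 303, 501 and 494 without the cKO IL libraries and to 2626 and 4288 without the WT CL libraries. The median change of the 50 genes was 2.1, 2.03 and 2.06 without the cKO CL libraries. The count also depended on scaling and depth, with 1 gene called after TMM from genes of at least 50 CPM, 3 with no scaling (median changes of the 50 genes 1.12 and 1.13) and 0 after thinning every library to the smallest total, beside 227, 301 and 170 of all genes called higher. The median over all genes tested fell to -2.30 with that TMM and to -2.26 with no scaling. The median of the 50 genes stood above it by 3.41 and 3.38, beside 3.33 in the main fit.

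In WT mice the same comparison gave changes in the same direction for most of the genes but no call. edgeR called 0 of the 50 in either direction, beside 0.538% of all genes tested called higher and 0.0701% lower and 1.76% of the abundant protein-coding genes called higher, while 20 passed an unadjusted p under 0.05 upward and 0 downward (9.53% and 8.75% of all genes tested). DESeq2 called 5 of them, all higher, beside 4.19% of the genes it tested called higher and 9.09% lower, and voom called 0, as it did of all genes tested. Of the 50 changes, 46 were above 0, beside 43.7% of all genes tested and 72.4% of the abundant protein-coding genes. The median log2 fold change was 1.2, against -0.31 over all genes tested and 0.59 over the abundant protein-coding genes. The median of the 50 genes moved to 0.59 without the WT IL library of 23087202 counts, to 1.82 without the WT CL library of 12647526 counts, to 0.34 with TMM from genes of at least 50 CPM and to 0.56 without scaling. In these fits, in that order, it stood 0.73, 1.89, 1.39 and 1.38 above the median over all genes tested, beside 1.51 in the main fit. In 11 of the 50 the 3 WT IL libraries lay above the 3 WT CL libraries, beside 10.3% of all genes tested and 24.5% of the abundant protein-coding genes, a share close to that of the abundant genes. Without the WT CL libraries of 12647526, 5155202 and 2091512 counts in turn, 11, 2 and 4 genes were called, and 9 were called when the WT IL library of 18425180 counts was left out, beside 966, 436, 390 and 977 of all genes called higher in these fits and 192 with all libraries.

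**Figure D2:**
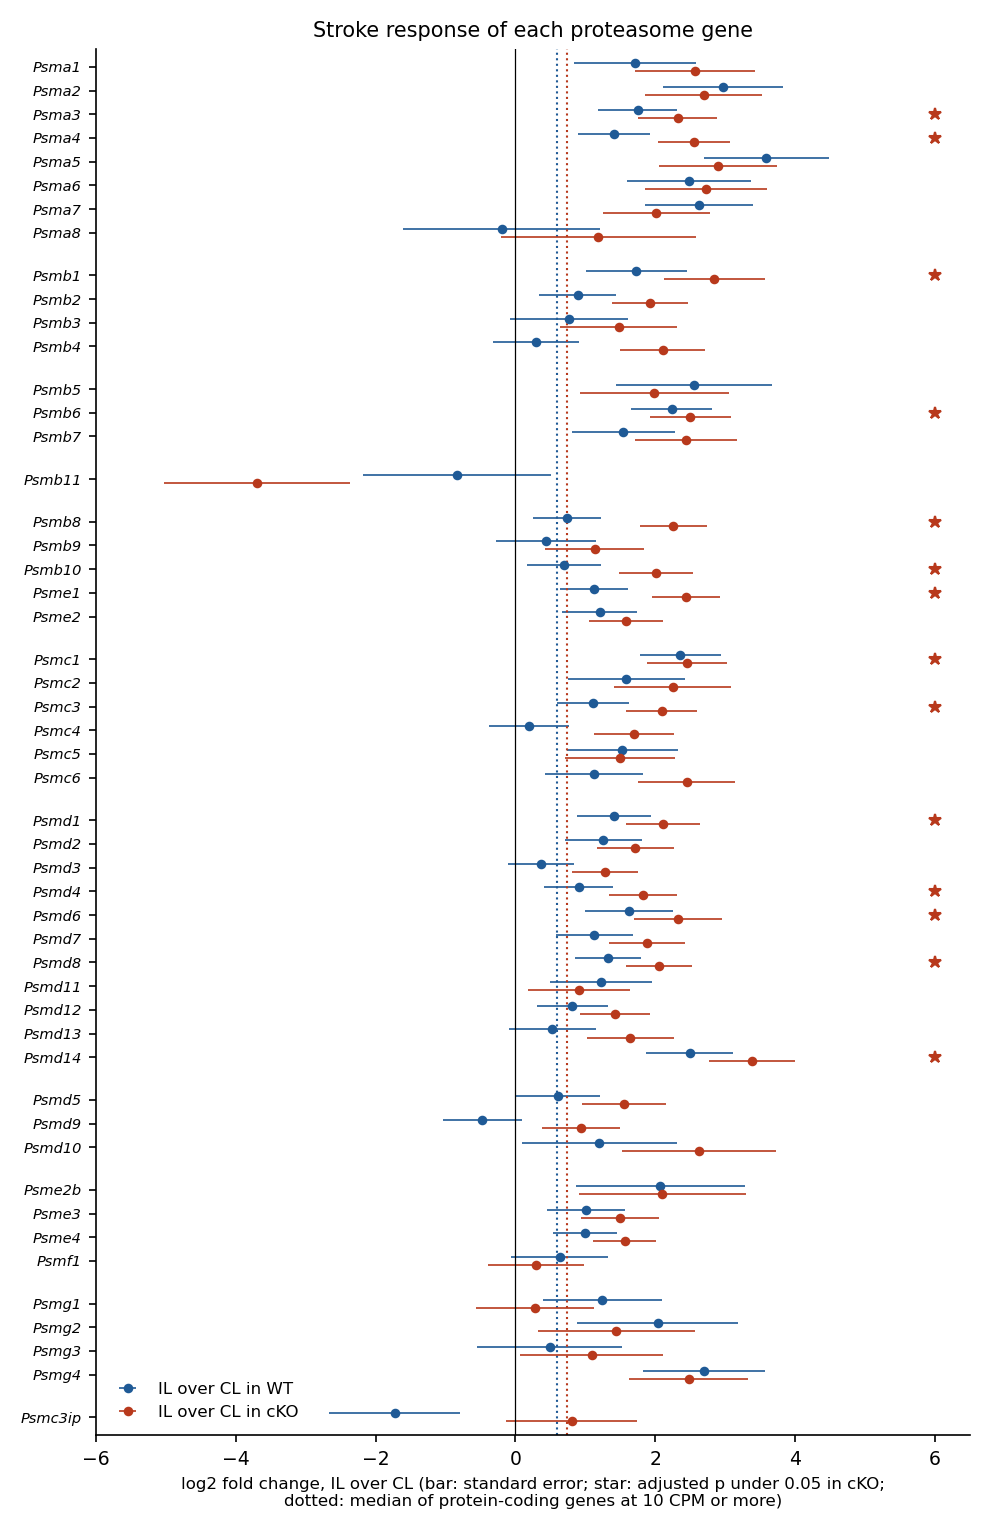
The log2 fold change of IL over CL (x axis) for each of the 50 genes (y axis, grouped by role), in WT (blue) and cKO (red), with bars for the standard error of the edgeR fit. Stars mark the 14 genes called in cKO, and dotted lines mark the medians of abundant protein-coding genes at 0.59 in WT and 0.74 in cKO. All but Psmb11 lie to the right of 0 in cKO.

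In the alpha ring, which gates the core, Psma3 and Psma4, 2 of the 8 genes, were called in cKO. Of the abundant protein-coding genes 10.3% were called higher, and of all genes tested 2.94%. All 8 had cKO IL libraries above all cKO CL libraries, as did 52.9% of the abundant protein-coding genes and 18.5% of all genes tested. Their median log2 fold change in cKO was 2.56. Psma4 stood at 20.9, 31.6 and 33.5 CPM in cKO CL and 248, 121 and 137 CPM in cKO IL. The cKO groups were far apart, with 1 IL library well above the other 2. Its change was log2 2.56 ± 0.52 (SE), adjusted p = 0.0168, and in WT, where its levels were 49.4, 25.8 and 36.97 CPM in CL and 39.2, 84.9 and 174 CPM in IL and overlapped, it was log2 1.41 ± 0.52 (SE), adjusted p = 0.172. Psma3 changed by log2 2.32 ± 0.56 (SE), adjusted p = 0.0341 in cKO. The alpha subunit with the largest estimate, Psma5, was scarce in CL, at 2.63 to 4.72 CPM in cKO CL against 22.3 to 28.8 in cKO IL, and had log2 2.9 ± 0.84 (SE), adjusted p = 0.0722. Psma6 had log2 2.73 ± 0.87 (SE), adjusted p = 0.0963 and Psma7, the one nearest to 0 among the abundant alpha genes, log2 2.02 ± 0.77 (SE), adjusted p = 0.141. Psma8, the testis-specific alternative to Psma7, was scarce, at 3.12 to 3.46 CPM in cKO IL, with log2 1.19 ± 1.4 (SE), adjusted p = 0.556.

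Of the 4 structural genes of the beta ring, which line the core without cutting, Psmb1 was called in cKO. Of the abundant protein-coding genes 10.3% were called higher, and of all genes tested 2.94%. Psmb1 changed by log2 2.85 ± 0.72 (SE), adjusted p = 0.0423. Its levels were 6.1, 15.3 and 13.9 CPM in cKO CL and 62.3, 80.04 and 112 CPM in cKO IL, with every IL library above every CL library. Psmb4 had log2 2.1 ± 0.61 (SE), adjusted p = 0.0666 in cKO and log2 0.29 ± 0.62 (SE), adjusted p = 0.839 in WT. The one nearest to 0 was Psmb3, with log2 1.48 ± 0.84 (SE), adjusted p = 0.268.

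The constitutive catalytic subunits are Psmb5, Psmb6 and Psmb7, which carry the chymotrypsin-like, caspase-like and trypsin-like activities. On the GRCm38 build they lie on chromosome 14 (chr14:54614119-54618022), chromosome 11 (chr11:70525367-70527858) and chromosome 2 (chr2:38588036-38644087). Psmb6 stood at 32.2, 19.04 and 3.52 CPM in CL and 61.2, 56.04 and 143 CPM in IL of WT mice, and 16.6, 17.1 and 25.5 CPM in CL and 110.2, 96.98 and 129 CPM in IL of cKO mice. Both IL groups lay wholly above their CL groups. It was called in cKO, at log2 2.5 ± 0.58 (SE), adjusted p = 0.0298, and in WT the change was log2 2.23 ± 0.58 (SE), adjusted p = 0.0774. Psmb7 stood at 1.04, 8.25 and 14.1 CPM in CL and 10.7, 15.5 and 40.4 CPM in IL of WT mice, and 8.44, 6.64 and 3.35 CPM in CL and 38.7, 28.3 and 33.4 CPM in IL of cKO mice. The WT groups overlapped and the cKO groups did not, with log2 2.45 ± 0.73 (SE), adjusted p = 0.0744 in cKO. Psmb5, the least abundant of the set, was at 0, 4.2 and 0 CPM in CL and 5.07, 6.3 and 13.7 CPM in IL of WT mice, and 3.02, 4.01 and 4.95 CPM in CL and 21.3, 11.9 and 14.4 CPM in IL of cKO mice. It had no count in 2 of the 3 WT CL libraries, and its change in cKO was log2 1.99 ± 1.07 (SE), adjusted p = 0.255.

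Psmb11, the catalytic subunit of the thymic proteasome, had an estimate below 0 in cKO. It lies next to Psmb5 on chromosome 14 (chr14:54621433-54629556). It stood at 13.5, 7.25 and 9.94 CPM in cKO CL and 0.902, 1.45 and 0 CPM in cKO IL, with every IL library below every CL library, as for 35.9% of all genes tested. The change was log2 -3.7 ± 1.33 (SE), adjusted p = 0.144, which did not pass the adjusted threshold, and Psmb11 was the only 1 of the 50 with an unadjusted p under 0.05 downward in that comparison, beside 13.5% of all genes tested. In WT it was at 4.25, 6.75 and 0 CPM in CL and 3.38, 2.62 and 0.24 in IL, groups that overlapped. Its level per kilobase of exon, 0.875 CPM over all libraries, was the lowest of the 50.

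In the immunoproteasome set the typical change in cKO was close in size to that of the other genes. Of the 5, 3 were called higher in cKO IL than in cKO CL (Psmb8, Psmb10 and Psme1). Of the abundant protein-coding genes 10.3% were called higher, and of all genes tested 2.94%. The median log2 fold change of the 5 was 2.01, beside 1.99 for the other 45 genes, a difference of medians of 0.03. In WT the medians were 0.74 and 1.24, a difference of -0.50. There 0 of the 5 were called by edgeR, with 2 at an unadjusted p under 0.05, beside 0.538% and 9.53% of all genes tested upward.

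Psmb8 encodes the inducible counterpart of Psmb5 and lies in the MHC region of chromosome 17 (chr17:34197721-34201454). It stood at 27.97, 24.9 and 38.1 CPM in CL and 27.8, 41.6 and 82.1 CPM in IL of WT mice, and 16.6, 20.3 and 23.7 CPM in CL and 109, 88.6 and 92.7 CPM in IL of cKO mice. The WT groups overlapped, the cKO groups were clearly separate, and all cKO IL libraries also lay above all WT IL libraries. The change was log2 2.26 ± 0.48 (SE), adjusted p = 0.0208 in cKO and log2 0.74 ± 0.49 (SE), adjusted p = 0.429 in WT. Psmb9, the counterpart of Psmb6, sits close by on chromosome 17 (chr17:34181987-34187764), next to the peptide transporter gene Tap1, and was far scarcer. It stood at 7.31, 12.4 and 3.52 CPM in CL and 6.18, 7.2 and 18.4 CPM in IL of WT mice, and 13.1, 9.5 and 4.99 CPM in CL and 18.8, 13.1 and 28.8 CPM in IL of cKO mice. Its IL and CL groups overlapped in both genotypes, narrowly in cKO, and neither change was called, at log2 1.14 ± 0.71 (SE), adjusted p = 0.3 in cKO and log2 0.44 ± 0.72 (SE), adjusted p = 0.786 in WT.

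Psmb10, the counterpart of Psmb7, lies on chromosome 8 (chr8:105935735-105938444). It stood at 19.2, 9.9 and 19.4 CPM in CL and 23.5, 20.2 and 34.5 CPM in IL of WT mice, and 8.04, 10.98 and 14.6 CPM in CL and 39.05, 49.9 and 47.2 CPM in IL of cKO mice. Both IL groups lay above their CL groups, narrowly in WT and widely in cKO, and all cKO IL libraries also lay above all WT IL libraries. The changes were log2 2.01 ± 0.53 (SE), adjusted p = 0.0437 in cKO and log2 0.69 ± 0.53 (SE), adjusted p = 0.51 in WT.

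Psme1 and Psme2 encode the subunits of PA28, an activator that caps the core in place of the ubiquitin-binding cap, and lie beside each other on chromosome 14 (chr14:55578123-55581529 and chr14:55587441-55591113). Psme1 stood at 95.8, 78.4 and 109 CPM in CL and 107, 126 and 385 CPM in IL of WT mice, and 46.1, 82.01 and 72.7 CPM in CL and 427, 252 and 411 CPM in IL of cKO mice. One WT IL library, that of 23087202 counts, reached the cKO IL range, and the other WT IL libraries stayed near the CL level. The change was log2 2.44 ± 0.49 (SE), adjusted p = 0.0163 in cKO and log2 1.12 ± 0.49 (SE), adjusted p = 0.235 in WT. Per kilobase of exon, Psme1 was the most abundant of the 50 genes at 82.7 CPM over all libraries, followed by the cap subunits Psmd4 at 57.0 and Psmd8 at 56.4. Psme2 stood at 29.8, 14.5 and 18.8 CPM in CL and 33.8, 27.04 and 84.96 CPM in IL of WT mice, and 16.2, 26.3 and 18.6 CPM in CL and 61.5, 46.3 and 75.6 CPM in IL of cKO mice. Its cKO groups did not overlap, yet its change of log2 1.58 ± 0.53 (SE), adjusted p = 0.0978 was not called.

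**Figure D3:**
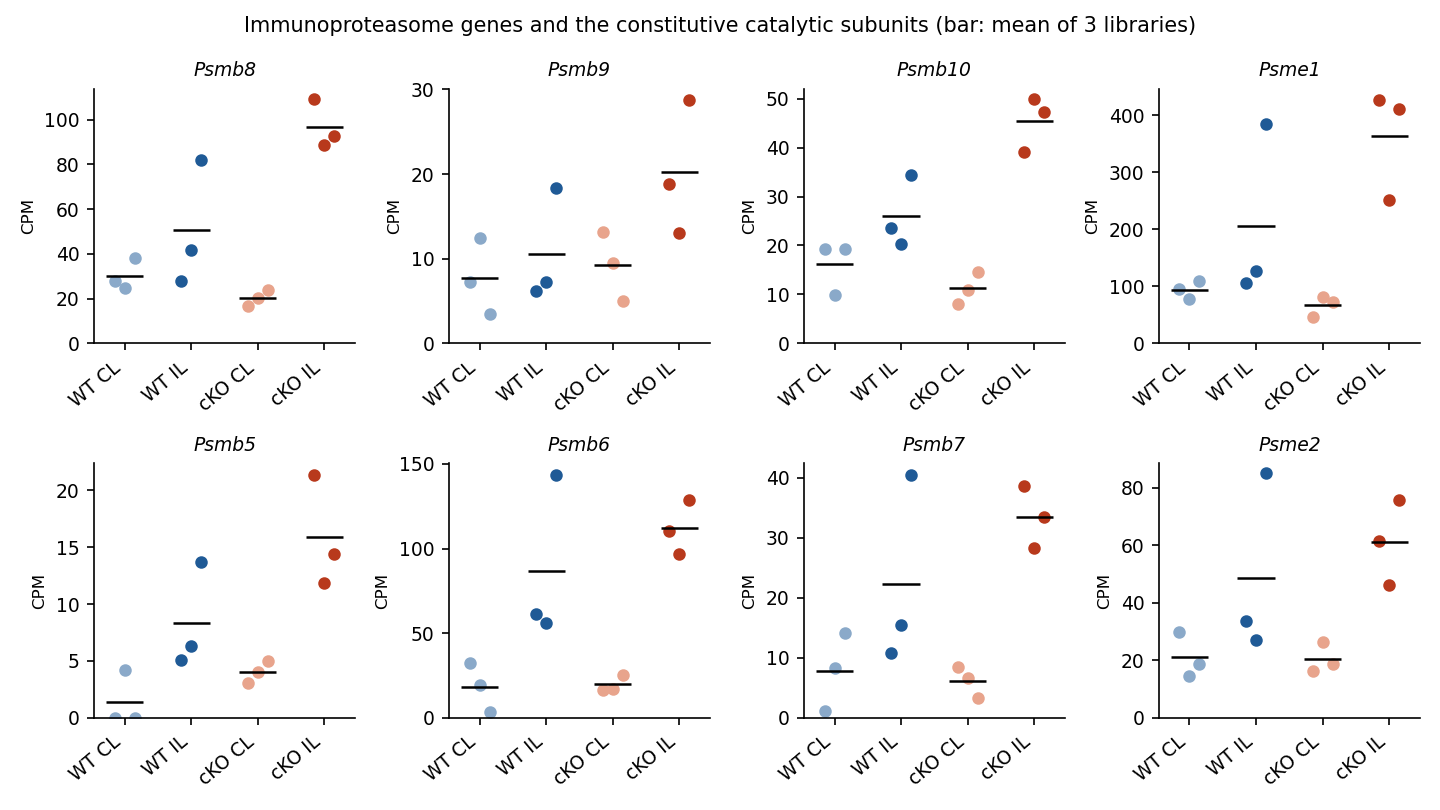
Levels (CPM, y axis) of the 5 immunoproteasome genes and of the constitutive catalytic subunits Psmb5, Psmb6 and Psmb7 in the 4 groups, with points for libraries and bars for the mean of 3. In every panel except Psmb9 the 3 cKO IL libraries lie above the 3 cKO CL libraries, as for 52.9% of the abundant protein-coding genes. In Psmb8 and Psmb10 the cKO IL libraries also lie above the WT IL libraries, as for 11.3% of the abundant protein-coding genes.

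Stretches upstream of these genes were read from RefSeq promoters (GRCm38.p6) to show which interferon and antioxidant motifs their letters hold. The windows searched were the 250 bases just before the annotated start, in the direction of the gene. Each is printed here only where no exon of GENCODE vM21 covers it. The windows of Psmb8 and Psmb9 lie wholly inside exons of longer transcripts, so Psmb8 is shown as its motif with 10 bases on either side and Psmb9 is not printed. Capitals mark a match to the gamma-activated sequence TTCNNNGAA or to the antioxidant response element TGACNNNGC, the kind of site bound by NRF1 and NRF2. Another motif, the interferon-stimulated response element GAAANNGAAA, was also searched, all on both strands.
Psmb8 (chr17:34198088.0-34198116.0, + strand): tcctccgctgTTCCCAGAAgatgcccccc
Psmb10 (chr8:105938445.0-105938642.0, - strand): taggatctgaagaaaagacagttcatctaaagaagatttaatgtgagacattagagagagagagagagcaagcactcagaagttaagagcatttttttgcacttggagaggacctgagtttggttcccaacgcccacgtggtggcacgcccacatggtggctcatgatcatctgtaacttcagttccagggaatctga
Psme1 (chr14:55578249.0-55578359.0, + strand): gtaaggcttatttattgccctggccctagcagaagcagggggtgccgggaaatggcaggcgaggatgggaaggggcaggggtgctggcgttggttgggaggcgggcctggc
Psme2 (chr14:55591114.0-55591351.0, - strand): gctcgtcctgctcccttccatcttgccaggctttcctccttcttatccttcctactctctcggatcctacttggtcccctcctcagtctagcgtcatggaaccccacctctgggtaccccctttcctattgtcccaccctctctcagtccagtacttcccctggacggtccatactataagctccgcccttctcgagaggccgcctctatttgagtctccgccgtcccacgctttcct
Psmb5 (chr14:54618023.0-54618245.0, - strand): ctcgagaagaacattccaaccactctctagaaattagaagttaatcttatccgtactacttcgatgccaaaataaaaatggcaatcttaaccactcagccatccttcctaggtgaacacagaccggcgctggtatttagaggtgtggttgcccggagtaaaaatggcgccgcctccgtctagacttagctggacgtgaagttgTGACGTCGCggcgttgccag
Psmb6 (chr11:70525107.0-70525356.0, + strand): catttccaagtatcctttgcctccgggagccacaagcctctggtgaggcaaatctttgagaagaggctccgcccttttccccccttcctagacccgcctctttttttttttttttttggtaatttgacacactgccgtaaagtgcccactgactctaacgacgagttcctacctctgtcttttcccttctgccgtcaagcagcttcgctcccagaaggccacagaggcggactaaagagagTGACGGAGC

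Among the 5 immunoproteasome windows, the gamma-activated sequence was found in that of Psmb8 alone, 97 bases before the start, and the other motifs in none. A promoter was matched for 42 of the 50 genes. The gamma-activated sequence was in 2 of these 42 (Psmb8 and Psmg1) and in 8.13% of the 27025 genes with a promoter. The interferon-stimulated element was in 3 (Psmb3, Psmd4 and Psmd9), beside 3.46% of all genes, and the antioxidant element in 5 (Psmb5 at 47 and Psmb6 at 9 bases before the start, Psmc6, Psmd12 and Psmd9), beside 11.5%. A match describes letters in a window and not a bound site.

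Ratios inside a library are free of scaling between libraries, and they compare each inducible subunit with the constitutive one it replaces. The log2 ratio of Psmb8 to Psmb5 counts (0.5 added to each) was 2.58 ± 0.13 in IL of WT mice, 2.35 ± 0.10 in CL of cKO mice and 2.65 ± 0.27 in IL of cKO mice (SD, n = 3), groups that overlapped between the cKO hemispheres and between the IL groups. In WT CL it could be read in 1 library only, at 2.55, as the others had no Psmb5 count. The log2 ratio of Psmb9 to Psmb6 was -2.13, -0.61 and 0 in WT CL and -3.3, -2.96 and -2.96 in WT IL, so that all WT IL libraries lay below all WT CL libraries, by 2.16 on average. The WT CL value of 0 rests on 12 counts of each gene, in the library of 2091512 counts. With 1 library left out, the mean difference of WT IL from WT CL ran from -2.77 to -1.70. In cKO the ratio was -0.34, -0.84 and -2.35 in CL and -2.55, -2.89 and -2.16 in IL. The cKO hemispheres overlapped through 1 CL library, and the cKO IL libraries lay above the WT IL libraries, by 0.54 on average. The log2 ratio of Psmb10 to Psmb7 overlapped between the groups in all 4 comparisons. With 3 libraries a group, the exact two-sided permutation test cannot go below p = 0.1 for any of these. The 5 immunoproteasome genes together held 11.0% to 16.8% of the proteasome counts in WT CL, 11.2% to 12.5% in WT IL, 10.5% to 12.1% in cKO CL and 11.3% to 15.6% in cKO IL.

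**Figure D4:**
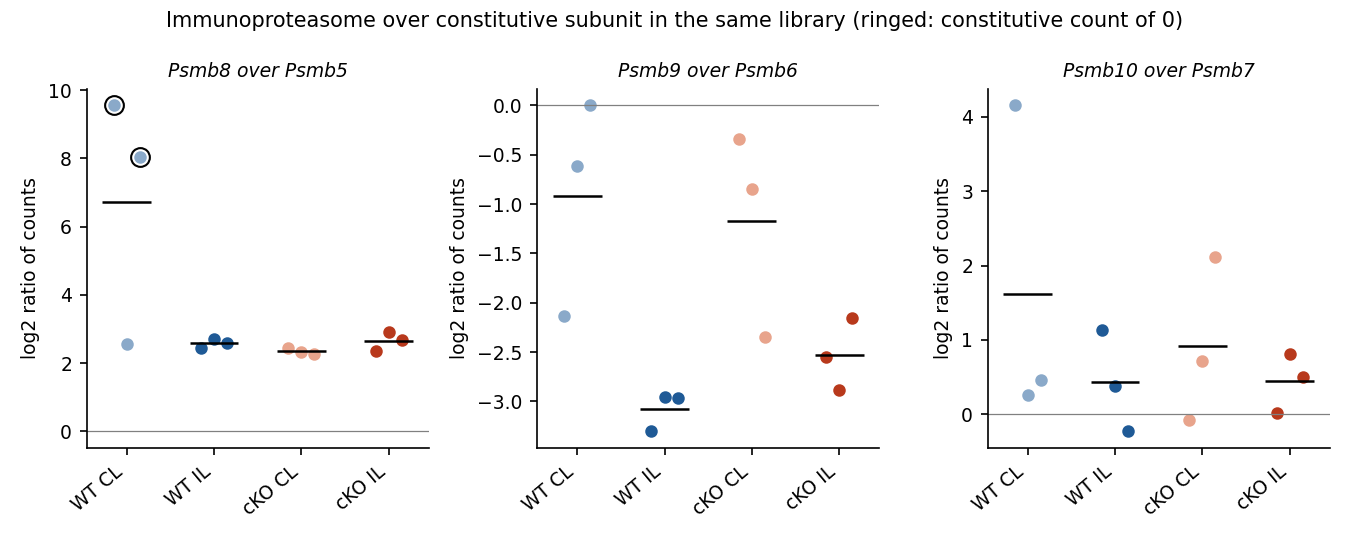
The log2 ratio of the counts of each inducible catalytic subunit to its constitutive counterpart within a library (y axis), by group, with points for libraries and bars for the mean of 3. Rings mark WT CL libraries with no Psmb5 count, whose ratio rests on the 0.5 added. Psmb9 over Psmb6 runs from -3.30 to -2.96 in WT IL, below the WT CL range of -2.13 to 0. The value of 0 rests on 12 counts of each gene.

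The 6 ATPases form the motor ring of the cap that unfolds substrates. All 6 had cKO IL libraries above all cKO CL libraries, beside 52.9% of the abundant protein-coding genes and 18.5% of all genes tested. The median log2 fold change of the 6 in cKO was 2.17. Psmc1 and Psmc3 were called, beside 10.3% of the abundant protein-coding genes and 2.94% of all genes tested called higher. Psmc1 stood at 28.3, 53.96 and 39.6 CPM in cKO CL and 276.1, 193 and 198 in cKO IL, a change of log2 2.45 ± 0.57 (SE), adjusted p = 0.0307. In WT, Psmc1 had the lowest adjusted p of the 50 genes, at log2 2.36 ± 0.58 (SE), adjusted p = 0.0648, with 39.98, 28.2 and 8.8 CPM in CL and 58.4, 72.2 and 267 in IL. Psmc3 changed by log2 2.09 ± 0.51 (SE), adjusted p = 0.0344 in cKO. Psmc6 had log2 2.45 ± 0.7 (SE), adjusted p = 0.0646, and Psmc5, the one nearest to 0, log2 1.5 ± 0.79 (SE), adjusted p = 0.244.

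The 11 other cap subunits bind ubiquitin, hold the lid together or remove ubiquitin, and 5 of them were called in cKO: Psmd14, Psmd8, Psmd1, Psmd4 and Psmd6. Of the abundant protein-coding genes 10.3% were called higher, and of all genes tested 2.94%. Psmd14, the deubiquitinase of the lid, lies on chromosome 2 (chr2:61711694-61800376) and had the largest estimated increase of the 50 genes in cKO. It stood at 10.5, 5.1 and 5.28 CPM in CL and 13.7, 21.7 and 83.8 CPM in IL of WT mice, and 4.02, 7.3 and 9.54 CPM in CL and 87.2, 75.8 and 56.1 CPM in IL of cKO mice. Both IL groups lay wholly above their CL groups, and WT IL again held 1 high library and 2 lower ones. The change was log2 3.39 ± 0.61 (SE), adjusted p = 0.0131 in cKO and log2 2.5 ± 0.62 (SE), adjusted p = 0.0708 in WT. Psmd1, a scaffold of the cap base, changed by log2 2.11 ± 0.53 (SE), adjusted p = 0.037 in cKO. Psmd4, a ubiquitin receptor, stood at 47.3 to 97.04 CPM in cKO CL and 229 to 344 CPM in cKO IL, log2 1.83 ± 0.49 (SE), adjusted p = 0.0463. The lid subunit Psmd8 had log2 2.05 ± 0.47 (SE), adjusted p = 0.0283 and the lid subunit Psmd6 log2 2.33 ± 0.63 (SE), adjusted p = 0.04997. All 11 had separate cKO groups, with IL above CL, beside 52.9% of the abundant protein-coding genes and 18.5% of all genes tested. The smallest estimate was that of the lid subunit Psmd11, log2 0.91 ± 0.72 (SE), adjusted p = 0.393.

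The genes that assemble or regulate the proteasome gave no call by edgeR in any comparison. In cKO 2 of the 3 cap chaperones, 1 of the 4 core chaperones and 2 of the 4 other regulators passed an unadjusted p under 0.05, all upward. Of all genes tested, 10.5% passed it upward and 13.5% downward. Of the 3 cap chaperones, Psmd5 had log2 1.55 ± 0.6 (SE), adjusted p = 0.14 and Psmd9 log2 0.94 ± 0.56 (SE), adjusted p = 0.284 in cKO, and Psmd9 was one of the 4 genes with an estimate below 0 in WT, log2 -0.48 ± 0.56 (SE), adjusted p = 0.69. Of the 4 core chaperones, Psmg4 had log2 2.48 ± 0.85 (SE), adjusted p = 0.116 and Psmg1, a partner of Psmg2, log2 0.28 ± 0.84 (SE), adjusted p = 0.823, with levels of 8.98 to 14.3 CPM in cKO CL and 13.7 to 14.9 in cKO IL that overlapped. Among the other activators, the nuclear activators Psme3 and Psme4 had log2 1.5 ± 0.56 (SE), adjusted p = 0.128 and log2 1.56 ± 0.45 (SE), adjusted p = 0.0601, while the inhibitor Psmf1, known as PI31, had log2 0.3 ± 0.69 (SE), adjusted p = 0.769. Psmc3ip, which is no proteasome subunit, had log2 0.81 ± 0.94 (SE), adjusted p = 0.549 in cKO and log2 -1.73 ± 0.94 (SE), adjusted p = 0.343 in WT.

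The genotypes were compared next within each hemisphere. In CL, edgeR called 0 of the 50 genes, as it did 0% of all genes tested, DESeq2 and voom also called 0 of them, and 1 had an unadjusted p under 0.05 (Psmc3ip, lower in cKO, log2 -2.14 ± 0.94 (SE), adjusted p = 1), beside 3.28% of all genes tested upward and 1.44% downward. Its levels were 1.04, 5.55 and 47.5 CPM in WT CL, the last value coming from the library of 2091512 counts, and 5.23, 2.14 and 4.79 CPM in cKO CL, and the groups overlapped. The median change of the 50 genes was -0.07, beside 0.23 over all genes tested and 0.09 over the abundant protein-coding genes. Of the 50, 22 were above 0, beside 59.3% of all genes tested and 56.4% of the abundant protein-coding genes. Psmb8, Psmb10 and Psme1 had changes of -0.58 ± 0.49, -0.52 ± 0.53 and -0.5 ± 0.49 (SE, log2), Psme2 of -0.05 ± 0.53 and Psmb9 of 0.24 ± 0.72, and of the 5 only Psmb8 had cKO libraries that all lay below the WT libraries, beside 1.38% of all genes tested. In the other direction, the groups did not overlap for Psma5 and Psmb11, beside 9.27% of all genes tested.

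In IL the estimates leaned upward in cKO. The change was above 0 for 47 of the 50 genes, beside 41.9% of all genes tested and 68.5% of the abundant protein-coding genes. The median was 0.67, beside -0.24 over all genes tested and 0.29 over the abundant protein-coding genes. Single WT IL libraries moved this median, to 0.32 without that of 18425180 counts and 1.35 without that of 23087202 counts. edgeR called 0 of them, as it did 0% of all genes tested, 0 had an unadjusted p under 0.05 (0.334% of all genes tested upward and 2.03% downward) and DESeq2 called 0, whereas voom with library quality weights called 36, all higher, beside 7.23% of all genes tested called higher and 4.68% lower by voom. In 3 of the 50 the cKO IL libraries lay above the WT IL libraries, beside 4.83% of all genes tested and 11.3% of the abundant protein-coding genes, and these are the lid subunit Psmd3 and the immunoproteasome genes Psmb8 and Psmb10. The changes were 0.94 ± 0.48 for Psmb8, 0.8 ± 0.53 for Psmb10, 0.82 ± 0.49 for Psme1, 0.93 ± 0.71 for Psmb9 and 0.33 ± 0.53 for Psme2 (SE, log2). The median over the 5 was 0.82 and over the other 45 genes 0.62, and the difference of these medians ran from 0.046 to 0.37 with 1 library left out.

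Whether the stroke response itself differs between the genotypes was tested as an interaction over all 12 libraries. edgeR called 0 of the 50 genes and 0% of all genes tested, DESeq2 and voom also called 0 of them, and 2 had an unadjusted p under 0.05, both with a larger response in cKO, beside 0.827% of all genes tested upward and 2.97% downward: Psmb8 at log2 1.52 ± 0.69 (SE), unadjusted p = 0.0377 and adjusted p = 1 in edgeR and Psmb4 at log2 1.81 ± 0.87 (SE), unadjusted p = 0.0499 and adjusted p = 1 in edgeR. Thus 14 calls in cKO beside 0 in WT are not shown to be a difference between the genotypes. The estimate was above 0 for 39 of the 50, beside 36.8% of all genes tested and 57% of the abundant protein-coding genes. The median was 0.70, where that over all genes tested was -0.48 and that over the abundant protein-coding genes 0.13. Leaving out 1 WT IL library moved the median of the 50 to 0.42 (that of 18425180 counts) or 1.44 (that of 23087202 counts).

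**Figure D5:**
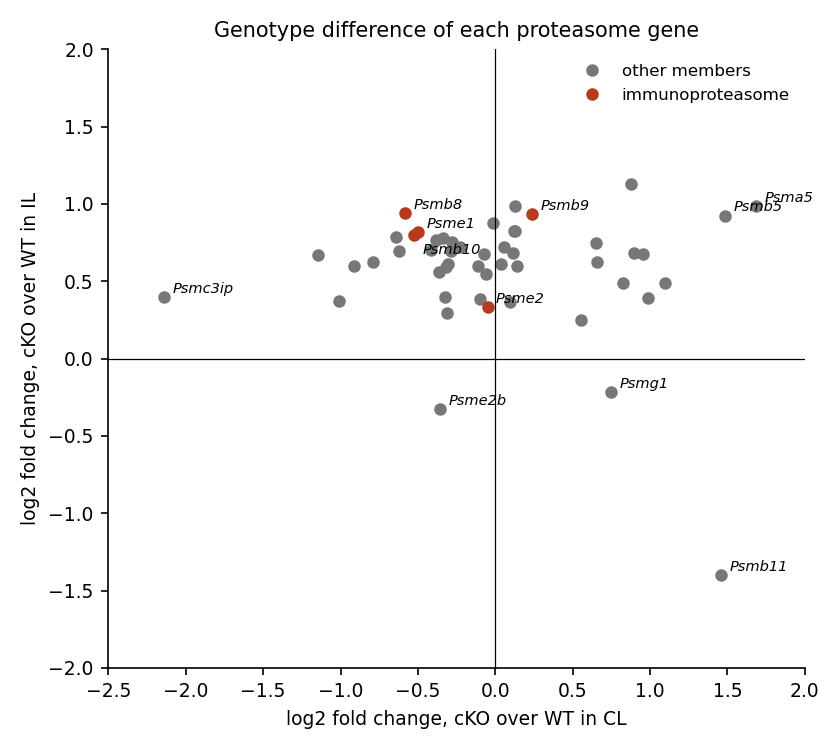
The log2 fold change of cKO over WT in CL (x axis) against that in IL (y axis) for the 50 genes, with the 5 immunoproteasome genes in red. The points spread to both sides of 0 in CL (22 of 50 above) and mostly above 0 in IL (47 of 50), and no gene was called in either. Of the abundant protein-coding genes, 56.4% were above 0 in CL and 68.5% in IL.

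Genes that act with the proteasome were followed through lists from general knowledge. Of 14 tested partners outside the name rule, 4 were called higher in cKO IL than in cKO CL and 1 in WT, with 0 lower and medians of 1.85 and 1.48. Of the abundant protein-coding genes, 10.3% were called higher in cKO and 1.76% in WT, with medians of 0.74 and 0.59. Of all genes tested, 2.94% were called higher in cKO and 0.538% in WT. Sem1, the smallest lid subunit, stood at 18.8 to 45.8 CPM in cKO CL and 265 to 329.6 CPM in cKO IL, log2 3.24 ± 0.69 (SE), adjusted p = 0.0238. Rad23b and Ubqln1, shuttle proteins that deliver ubiquitinated cargo, had log2 2.2 ± 0.53 (SE), adjusted p = 0.0333 and log2 1.99 ± 0.51 (SE), adjusted p = 0.0394. Zfand2a, a stress-induced proteasome binder, was the gene called in both genotypes, at log2 2.48 ± 0.5 (SE), adjusted p = 0.0161 in cKO and log2 2.61 ± 0.5 (SE), adjusted p = 0.036 in WT. Of 6 genes on the route by which NRF1 and NRF2 reach proteasome genes, 1 was called in cKO and 0 in WT: the stress factor Nfe2l2 (NRF2), at log2 2.0 ± 0.52 (SE), adjusted p = 0.0417. NRF1 itself, Nfe2l1, had log2 0.27 ± 0.5 (SE), adjusted p = 0.713. The median over these 6 genes was 0.71 in cKO and 0.77 in WT.

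Interferon gamma signaling lies upstream of the immunoproteasome. Of 10 of its genes tested, 1 was called higher in cKO and 0 in WT, the kinase Jak2, which stood at 27.2 to 38.3 CPM in cKO CL and 141 to 209 CPM in cKO IL, log2 2.42 ± 0.5 (SE), adjusted p = 0.0174. Irf1, a direct activator of immunoproteasome genes, had log2 -0.02 ± 0.47 (SE), adjusted p = 0.981. Over the 10 genes, 8 estimates were above 0 in cKO and 9 in WT, with medians of 1.15 and 0.91. Of the abundant protein-coding genes, 72.3% and 72.4% were above 0, with medians of 0.74 and 0.59, and 10.3% and 1.76% were called higher. The summed level of the 10 genes was 578 to 948 CPM in WT CL and 1641 to 1795 CPM in WT IL. In cKO it was 787 to 1389 CPM in CL and 2044 to 2573 CPM in IL. Of 11 genes that load peptides on MHC class I, 3 were called higher in cKO and 1 in WT. B2m, the light chain of MHC class I, had log2 3.87 ± 0.69 (SE), adjusted p = 0.0131 in cKO and log2 3.57 ± 0.7 (SE), adjusted p = 0.0378 in WT. The oxidoreductase Pdia3 had log2 3.38 ± 0.62 (SE), adjusted p = 0.0135 and the peptide-trimming enzyme Erap1 log2 2.81 ± 0.68 (SE), adjusted p = 0.0362 in cKO. The peptide transporter genes Tap1 and Tap2, which lie interleaved with Psmb9 and Psmb8, had log2 0.82 ± 0.45 (SE), adjusted p = 0.254 and log2 -0.24 ± 0.46 (SE), adjusted p = 0.716. Over the 11 genes, 9 estimates were above 0 in each genotype, with medians of 1.59 in cKO and 1.46 in WT.

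Some of these levels carry uncertainty from the gene models. In GENCODE vM21, 15 of the 50 genes share exon bases with another gene, and 6 of them over more than 10% of their exon length: Psmd9 with Gm26745 (25.5%), Psmc3ip with Mlx (21.2%), Psmb8 with the antisense gene Gm20496 (14.7%), Psmb5 with Mir686 (12.1%), Psmb7 with Nek6 (11.8%) and Psmd13 with Sirt3 (10.1%). Whether counting used strand is not given in the sources used here, so reads of opposite-strand partners may be joined. Psme2b is nearly a copy of Psme2, and reads may be split between them. It stood at 0, 7.35 and 0 CPM in CL and 16.1, 8.63 and 6.55 CPM in IL of WT mice, and 2.41, 1.15 and 2.24 CPM in CL and 8.81, 7.7 and 8.45 CPM in IL of cKO mice.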

How the data were processed

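The deposited table holds raw counts per gene, made by the authors from P2RY12+ cells with a stranded total RNA kit: adapters, low-quality reads, ribosomal RNA and mitochondrial DNA were removed and the rest aligned to mm10 with STAR 2.5.3a in Partek 8.0, while the annotation release is not given in the sources used here. Columns were assigned to the 4 groups by name. Genes passing filterByExpr (35674 of 53801) were scaled by TMM (factors 0.618 to 1.64) and tested in 1 fit of 12 libraries with edgeR 4.0.16 (quasi-likelihood, two-sided, R 4.3.3), with Benjamini-Hochberg adjustment over all genes tested and calls at an adjusted p under 0.05. All 50 genes passed the filter. The script was tested on simulated data. CPM are after TMM. Wilson intervals are at 95%.

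The members, lists, tests and alternatives were chosen with earlier results of these data known. Genes named are the 5 immunoproteasome genes, Psmb5, Psmb6 and Psmb7, every called member, in each other role the 2 largest changes in cKO at 10 CPM or more and the 1 nearest 0, Psmc3ip, and in each list the called genes or the 2 of lowest p; Psma8, Psmb11, Psme2b, Irf1, Tap1, Tap2 and Nfe2l1 were named after their values were seen. Alternatives were RLE scaling, TMM from genes of at least 50 CPM, no scaling, DESeq2 1.42.0, voom with quality weights (limma 3.58.1), other filters, fewer libraries, thinning and a replicate block. Positions and exon lengths come from GENCODE vM21 (GRCm38, as mm10) and promoters from RefSeq (GRCm38.p6). Most promoter windows were searched and not printed. The level of the targeted gene is not reported here. 4 further rows with such names are not protein-coding and were not used.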

Additional observations from a re-analysis of the deposited data

How the results depend on the processing

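The number of proteasome genes called for IL over CL in cKO (14) was 8 with RLE scaling, 1 with TMM from genes of at least 50 CPM, 3 without scaling, 22 with DESeq2, 43 with voom, 32 without a filter, 45 from the 6 libraries alone, and, as alternatives added after seeing the data, 0 after thinning, 43 without the smallest WT CL and WT IL libraries and 8 among protein-coding genes at 10 CPM or more. Leaving out 1 library gave 0 to 40. Over all genes, 629 were called higher with RLE scaling, 1816 with DESeq2, 5277 with voom and 2365 without a filter, beside 1050. From the 6 libraries alone 6175 were called higher, without those 2 libraries 4891, and among protein-coding genes at 10 CPM or more 491. In WT (0) the number of proteasome genes called was 5 with DESeq2, 10 without a filter, 3 with 10 counts in every library, 17 without the smallest WT CL and WT IL libraries and 0 to 11 with 1 library left out. Over all genes in WT, 1177 were called higher with DESeq2 and 1155 without a filter, beside 192 in the main fit. With 10 counts in every library it was 406 of 10437, and without those 2 libraries 1865. For cKO over WT in IL (0), voom called 36, beside 2579 of all genes called higher. In CL and for the interaction no alternative run called a member. Column numbers are no replicate numbers of the labels, and libraries of the same number did not all deviate together (correlations -0.13 to 0.21). With the column number as a replicate block 10 members were called in cKO, 0 in WT and 0 for the interaction. The difference of medians between the immunoproteasome and other genes moved from -0.43 to -0.76 with voom in CL and from -0.50 to -0.18 in WT without the smallest WT CL and WT IL libraries, and with 1 library left out ran from -0.77 to -0.36 in CL and from -0.67 to -0.18 in WT. The log2 ratio of Psmb8 to Psmb5, which rests on Psmb5 counts of 0 in WT CL, differed by -4.36 for cKO over WT in CL and -4.13 for IL over CL in WT, and by -2.19 and -1.92 with 5 counts added, with ranges of -6.44 to -2.94 and -6.21 to -2.70 when 1 library was left out. Among uncalled changes, the sign turned in WT for Psmb8 (-0.27), Psmb10 (-0.26) and Psmb9 (-0.36) with TMM from genes of at least 50 CPM, for Psmb9 without scaling (-0.20), with voom (-0.39) and among protein-coding genes at 10 CPM or more (-0.15), and for Psmb10 after thinning (-0.31). For cKO over WT in CL it turned for Psme2 with voom (0.20) and thinning (0.25) and for Psmb9 with voom (-0.34) and without the smallest WT CL and WT IL libraries (-0.20), and in IL for Psmb9 after thinning (-0.073). With 1 library left out, Psmb9 ran from -0.21 to 0.95 in WT, and in CL Psme2 from -0.27 to 0.42 and Psmb9 from -0.19 to 0.75. The cause of these changes was not tested. The WT CL libraries, down to 2091512 counts, limit the depth of every comparison that uses them, the interaction included.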
